A study of Homo sapiens with 4 samples.

Results

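The histone acetyltransferase genes were examined in BE(2)C cells, a human neuroblastoma line with amplified MYCN, after knockdown of MYCN. The group holds 10 of the 26364 genes listed in each sample, chosen by symbol: KAT2A, KAT2B, HAT1, EP300, CREBBP, KAT5, KAT6A, KAT6B, KAT7 and KAT8. RNA-seq was available for 4 samples. The 2 control samples (Ctrl) are of wild type genotype by their labels and received a non-targeting siRNA, and the 2 knockdown samples (MYCN KD) received siRNA against MYCN. All 4 were transfected with Lipofectamine 2000 for 6 h, at 80 nM siRNA by the sample labels (the study's methods give a lower concentration), and RNA was collected the next day. A single siRNA and a single cell line were used, so siRNA off-target effects and a MYCN effect cannot be told apart. The study's methods speak of biological replicates, but the labels do not say whether the samples came from separate cultures. The p-values measure only the spread between these samples in the deposited values, from which the authors had removed unwanted variation.

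Histone acetyltransferases transfer an acetyl group from acetyl-CoA to lysines of the histone tails, a mark of open and transcribed chromatin. They fall into the GNAT family (KAT2A, KAT2B and HAT1), the p300/CBP pair (EP300 and CREBBP) and the MYST family (KAT5, KAT6A, KAT6B, KAT7 and KAT8). Most work as the catalytic subunit of a large complex. MYC proteins are known to bring the KAT2A and KAT5 complexes to promoters through the shared subunit TRRAP.

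The deposited values are RPKM, reads scaled to gene length and to the total reads of the sample, so that levels can be compared between genes of different length. By the study's methods, the reads had first been normalized with RUVSeq. The total behind each sample was from 29055819 to 34142988 normalized reads. All reads given below are such normalized values, recovered from the RPKM, and not sequenced reads. MYCN itself had an RPKM of 1068 and 1073 in the controls against 720.2 and 718.0 after knockdown, which left 67.2% of its Ctrl level (log2 fold change -0.57, limma, adjusted p = 0.00361). The cells carried the neuroblastoma transcription factor HAND2 at 209 RPKM or more, while the blood cell markers PTPRC, CD3E, LYZ and HBB stayed at 0.0413 RPKM or less. The 11 neuroblastoma markers summed to between 3368 and 3613 RPKM in Ctrl and between 4875 and 5219 RPKM in MYCN KD, with 8 called higher. The 7 fibroblast and mesenchymal markers summed to between 232.8 and 238.9 RPKM in Ctrl and between 276.6 and 283.4 RPKM in MYCN KD (4 of 5 tested called higher), most of it THY1. Over the samples PDGFRB stood at 10.1 to 11.8 RPKM, LUM at 6.64 to 8.19 RPKM and DCN at 4.58 to 9.33 RPKM. COL1A1 stayed at 1.78 RPKM or less, COL3A1 at 0.539 RPKM or less and COL1A2 at 0.0254 RPKM or less. The 6 blood cell markers summed to between 1.58 and 1.80 RPKM in Ctrl and between 1.57 and 1.78 RPKM in MYCN KD, nearly all of it CD14, the 1 marker of the list tested, which was not called. The 5 epithelial markers summed to between 14.6 and 15.4 RPKM in Ctrl and between 27.2 and 28.6 RPKM in MYCN KD, nearly all of it KRT19, the 1 marker tested (called higher). The part of these marker shifts in the results that follow was not tested. In bulk RNA, fewer cells of a type and less RNA per cell cannot be told apart.

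All 10 genes were expressed above 0 in all samples, but across a wide range. In Ctrl, KAT2A stood highest at 30.7 ± 0.524 RPKM (SD, n = 2). It was followed by EP300 (25.5 RPKM), KAT8 (25.5 RPKM) and KAT7 (25.2 RPKM), whose replicate values overlapped. KAT5 came next at 18.5 RPKM, and then CREBBP (16.5 RPKM) and HAT1 (15.5 RPKM), which overlapped each other. KAT6A had 10.4 RPKM, KAT6B 3.54 RPKM and KAT2B 0.535 RPKM. In MYCN KD the order changed, with EP300 (27.7 RPKM) and KAT7 (26.6 RPKM) on top, overlapping each other, and KAT2A in 5th place at 14.6 RPKM. The sum over the 10 genes was 173.9 and 169.5 RPKM in Ctrl against 148.9 and 151.8 RPKM after knockdown. KAT2A made up 17.8% and 17.9% of this sum in Ctrl and 9.66% and 9.73% in MYCN KD. Without KAT2A the sums were 142.9 and 139.2 RPKM under control siRNA against 134.5 and 137.0 RPKM under MYCN siRNA.

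**Figure D1:**
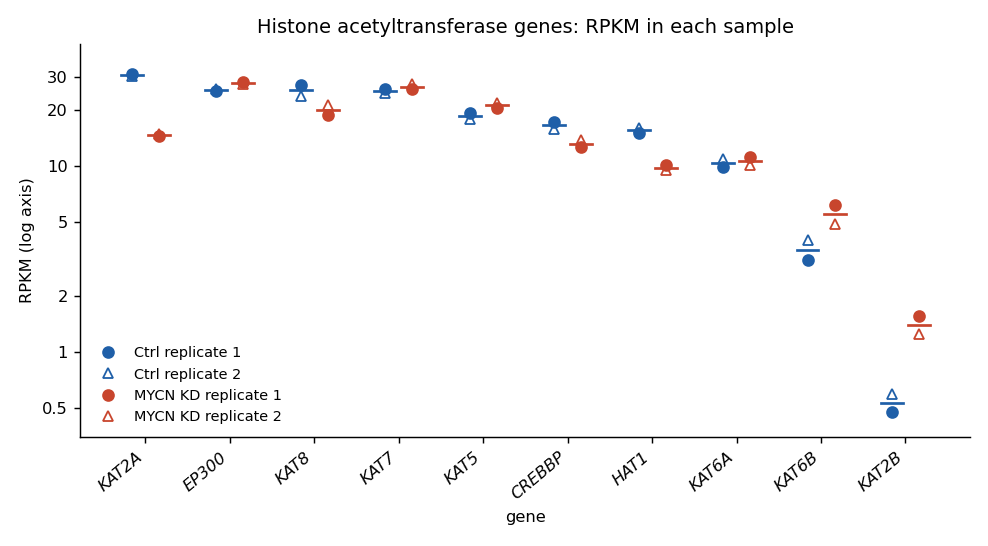
RPKM (log axis) of the 10 histone acetyltransferase genes in each of the 4 samples, ordered by their Ctrl mean. Points are samples and short lines are the means of 2 replicates. KAT2A drops from the highest level in Ctrl (30.7 RPKM) to 14.6 RPKM in MYCN KD, and KAT2B, the lowest gene, goes from 0.535 to 1.40 RPKM.

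Of the 10 genes, 9 had a mean RPKM of at least 1 and entered the test over 11411 genes (limma on log2(RPKM + 1) with Benjamini-Hochberg adjustment). KAT2A, HAT1 and CREBBP fell after knockdown (adjusted p under 0.05), and 0 of the 9 genes rose in this test. At an unadjusted p under 0.05, KAT8 was also lower, and KAT5 and KAT6B were higher. Over all genes tested, 22.8% were called lower and 25.3% higher, 48.1% in all, against 33.3% of the 9 genes. The median log2 fold change of the 9 genes was 0.02 and that of all genes 0.03. The values of the conditions did not overlap in 7 of the 9 genes, 4 lower and 3 higher in MYCN KD, where 76.2% of all tested genes did not overlap (35.8% lower and 40.4% higher). These counts do not set the genes apart from the rest of the transcriptome. In all 9 genes the Ctrl replicates differed in the opposite direction to the MYCN KD replicates. The same mirror pattern ran through the transcriptome (correlation of -0.985 between the deviations of replicate 1 in Ctrl and in MYCN KD over the tested genes, which are not independent). Its cause was not tested. The limma fit treats the samples as varying independently, and how far this pattern affects its p-values was not tested.

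**Figure D2:**
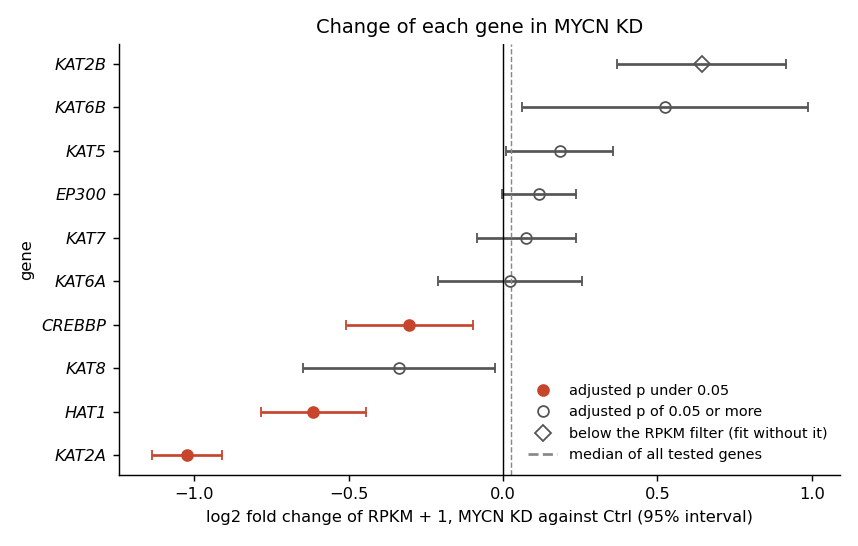
Log2 fold change of RPKM + 1 in MYCN KD against Ctrl for each gene, with 95% intervals from limma (2 samples per condition). KAT2A (-1.02), HAT1 (-0.62) and CREBBP (-0.30) are filled as past the threshold, and KAT2B is taken from the fit without the RPKM filter (0.64). The dashed line is the median of all tested genes (0.03).

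The RefSeq table of promoters (GRCh38.p14, 250 bases before and 50 bases after the start of a gene) held windows for 8 of the 10 genes, 11 windows in all. They were searched for CACGTG, the canonical E-box that MYC family proteins bind together with MAX. This palindrome reads alike on both strands. It was found in 1 of the 8 genes, KAT5. Of all windows listed, 7.26% held it, as did 13.2% of the tested genes that had a window. A match is a description of the letters and not a measured binding site, and the absence of a match covers this window alone. The promoters of KAT2A, which fell most, of its paralog KAT2B, of HAT1 and of KAT5 are shown 5′ to 3′ on the strand of the gene, with the first transcribed base in a capital letter and, in KAT5, the E-box in capitals from base -235 to base -230.
KAT2A (chr17:42121318-42121617, minus strand): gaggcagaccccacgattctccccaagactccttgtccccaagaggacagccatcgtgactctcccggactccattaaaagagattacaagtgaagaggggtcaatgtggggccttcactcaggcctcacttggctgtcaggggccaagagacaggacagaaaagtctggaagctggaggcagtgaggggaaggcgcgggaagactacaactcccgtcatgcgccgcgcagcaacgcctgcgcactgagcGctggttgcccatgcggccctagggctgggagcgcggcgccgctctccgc
KAT2B (chr3:20040196-20040495, plus strand): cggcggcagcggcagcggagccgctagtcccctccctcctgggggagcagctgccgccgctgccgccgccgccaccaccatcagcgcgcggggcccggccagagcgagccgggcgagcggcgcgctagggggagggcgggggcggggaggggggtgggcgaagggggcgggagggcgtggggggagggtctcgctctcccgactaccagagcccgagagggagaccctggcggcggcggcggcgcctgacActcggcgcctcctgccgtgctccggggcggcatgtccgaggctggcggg
HAT1 (chr2:171922211-171922510, plus strand): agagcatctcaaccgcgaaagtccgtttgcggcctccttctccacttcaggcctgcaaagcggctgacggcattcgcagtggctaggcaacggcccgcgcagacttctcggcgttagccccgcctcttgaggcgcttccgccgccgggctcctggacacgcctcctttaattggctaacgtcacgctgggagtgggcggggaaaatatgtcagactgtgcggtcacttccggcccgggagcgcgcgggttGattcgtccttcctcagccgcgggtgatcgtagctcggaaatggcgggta
KAT5 (chr11:65712002-65712301, plus strand): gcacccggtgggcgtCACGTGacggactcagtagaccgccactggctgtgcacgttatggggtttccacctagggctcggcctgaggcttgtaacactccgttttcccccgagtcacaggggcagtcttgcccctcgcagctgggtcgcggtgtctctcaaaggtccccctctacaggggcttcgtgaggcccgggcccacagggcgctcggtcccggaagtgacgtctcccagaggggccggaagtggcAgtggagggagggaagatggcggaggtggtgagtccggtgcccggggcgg
The windows of the paralogs KAT2A and KAT2B differed in base composition, with 62% and 80.3% G and C and with 18 and 40 CG dinucleotides.

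KAT2A encodes GCN5, the acetyltransferase of the SAGA and ATAC coactivator complexes and, with its paralog KAT2B, a main writer of H3K9ac. It lies on chromosome 17 from 40265129 to 40273385 on the minus strand (GRCh37). It stood at 31.0 and 30.3 RPKM under control siRNA against 14.4 and 14.8 RPKM under MYCN siRNA. Both knockdown samples stood far below both controls, with little spread between replicates. The remaining level was 47.5% of Ctrl, and from 46.4% to 48.7% over the 4 pairings of a knockdown sample with a control. The log2 fold change was -1.02 (standard error 0.0387, limma, adjusted p = 0.00359), beside -0.57 for MYCN, and ranked 133rd among the 2599 genes called lower. Behind these values stood 3298 and 3015 normalized reads in Ctrl and 1301 and 1422 in MYCN KD. Of the exon bases of KAT2A in GENCODE, 10.7% were shared with a transcript on the same strand that is not listed in these samples.

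KAT2B encodes PCAF, which can take the place of GCN5 in the same complexes. It lies on chromosome 3 from 20081938 to 20195896 on the plus strand. It stood at 0.474 and 0.596 RPKM in the control samples against 1.56 and 1.25 RPKM after knockdown, so both knockdown samples were above both controls. The mean RPKM over the samples was just under the filter of 1, and the gene therefore has no call in the test of the 11411 genes. The reads were 39 and 46 in the controls against 109 and 93 after knockdown. With these normalized reads taken as raw counts, the highest exact 95% Poisson bound in Ctrl was 61.4 and the lowest in MYCN KD was 75.1. Such bounds may differ from the counting error of the sequenced reads. They also leave out the spread between samples. The level in MYCN KD was 2.62 times that in Ctrl, and from 208.9% to 328.4% of it over the 4 pairings. In the fit without a filter on low values the log2 fold change on the log2(RPKM + 1) scale was 0.64 (standard error 0.0900, limma, adjusted p = 0.0234). This scale understates the change of a gene at such a low level, and with a pseudocount of 0.1 the value was 1.24 (limma, adjusted p = 0.0217). With a sample left out, the log2 fold change on the log2(RPKM + 1) scale ranged from 0.55 to 0.74. Even after its rise, KAT2B remained far below KAT2A.

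The subunits that share complexes with these enzymes had smaller fitted changes than KAT2A. Of 25 SAGA and ATAC subunits, 24 were tested, 5 fell and 2 rose, with a median log2 fold change of -0.13. The share called was 29.2%, against 48.1% of all genes tested. ENY2, a subunit of the SAGA deubiquitinating module, fell from 18.1 ± 0.808 to 12.5 ± 0.523 RPKM (SD, n = 2), with log2 fold change -0.50 (limma, adjusted p = 0.00919). WDR5, a scaffold of ATAC and of other chromatin complexes, fell by 0.35 on the log2 scale and TAF12, a histone-fold subunit, by 0.32. The 2 that rose were SUPT20H (0.23) and USP22 (0.18), the ubiquitin protease of SAGA. The calls for TAF12, TAF5L (-0.29) and YEATS2 (-0.27) were lost after rescaling all samples to equal totals (limma, adjusted p = 0.0517, 0.0645 and 0.0588). That for SUPT20H was lost without a filter on low values (limma, adjusted p = 0.0610). With a sample left out, the log2 fold change ranged from -0.54 to -0.46 for ENY2. It ranged from -0.37 to -0.32 for WDR5 and from 0.16 to 0.21 for USP22. In a fit with the replicate number as a block, USP22 was not past the threshold (limma, adjusted p = 0.311). TRRAP, the subunit that MYC proteins contact, had a log2 fold change of -0.11 and did not pass the threshold (limma, adjusted p = 0.0879). SUPT3H was below the filter, at 0.631 to 1.18 RPKM. After rescaling all samples to equal totals, the list had 2 genes called lower and 4 called higher.

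HAT1 acetylates newly made histone H4 in the cytoplasm before it is carried into the nucleus and built into chromatin. It lies on chromosome 2 from 172778958 to 172848600 on the plus strand. It stood at 15.0 and 15.99 RPKM under control siRNA against 10.1 and 9.46 RPKM under MYCN siRNA. Both knockdown samples were below both controls. The remaining level was 63.0% of Ctrl (from 59.2% to 67.2% over the 4 pairings), and the log2 fold change was -0.62 (standard error 0.0579, limma, adjusted p = 0.00686). The reads were 854 and 854 in the controls against 488 and 489 after knockdown.

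Of 6 genes that act with HAT1 or hand on new histones, 3 fell and 0 rose, a share of 50% called beside 48.1% of all genes tested. IPO4, the importin that carries new H3 and H4, had 85.5 and 74.5 RPKM in the control samples against 34.8 and 39.8 RPKM after knockdown, a log2 fold change of -1.08 (limma, adjusted p = 0.00751). NASP, a chaperone of H3 and H4, fell from 52.3 ± 4.19 to 29.5 ± 2.25 RPKM (SD, n = 2), by 0.80 on the log2 scale. RBBP4, a histone-binding WD repeat protein, fell by 0.44. The direct partner of HAT1, RBBP7, had a log2 fold change of -0.06 (limma, adjusted p = 0.445), and the chaperones ASF1A and ASF1B had 0.01 and 0.06, none of them past the threshold.

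EP300 and CREBBP encode p300 and CBP, closely related coactivators that write H3K27ac at enhancers and promoters. EP300 had 25.1 and 25.9 RPKM under control siRNA against 28.2 and 27.3 RPKM under MYCN siRNA. CREBBP had 17.2 and 15.8 RPKM in the control samples against 12.6 and 13.7 RPKM after knockdown. Neither gene overlapped between conditions, and the pair differed in direction. CREBBP, on chromosome 16 from 3775055 to 3930714, fell by 0.30 on the log2 scale (standard error 0.0702, limma, adjusted p = 0.0382), to 79.8% of Ctrl. The call for CREBBP was lost without a filter on low values (limma, adjusted p = 0.0573). It was also lost in a fit with the replicate number as a block. With a sample left out, the log2 fold change of CREBBP ranged from -0.36 to -0.25. EP300, on chromosome 22 from 41488596 to 41576081, had a log2 fold change of 0.12 (95% interval from -0.0023 to 0.24) and did not pass the threshold (limma, adjusted p = 0.0909). These had the most normalized reads of the 10 genes, with 7169 or more per sample for EP300 and 3731 or more for CREBBP.

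The ratio between the members of each paralog pair was then compared between conditions. The EP300 to CREBBP ratio of RPKM was 1.46 and 1.64 in the controls against 2.24 and 2.00 after knockdown. The KAT2A to KAT2B ratio was 65.5 and 50.8 in the controls against 9.25 and 11.9 after knockdown. For KAT6A to KAT6B it was 3.18 and 2.75 in the controls against 1.79 and 2.06 after knockdown. In all 3 pairs the values of the conditions did not overlap. On the log2(RPKM + 1) scale the ratio changed by 0.42 for EP300 to CREBBP, by -1.67 for KAT2A to KAT2B and by -0.50 for KAT6A to KAT6B. Each change reached p = 0.333 in a two-sided exact permutation test, the smallest p that 2 samples against 2 allow, so that this design cannot reach 0.05 for a ratio.

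**Figure D3:**
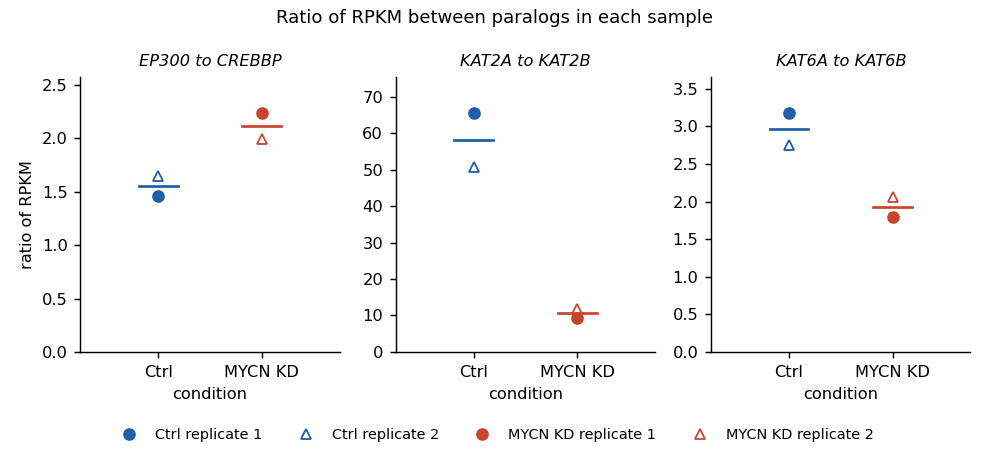
Ratio of RPKM between paralogs in each sample, with a panel for each pair and linear axes from 0. Points are samples and lines are means of 2 replicates. The KAT2A to KAT2B ratio goes from a mean of 58.2 in Ctrl to 10.6 in MYCN KD, that of KAT6A to KAT6B from 2.96 to 1.93, and that of EP300 to CREBBP from 1.55 to 2.12.

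KAT5 encodes TIP60, the catalytic subunit of the NuA4/TIP60 complex, which acetylates H4 and H2A variants and takes part in the response to DNA breaks. It stood at 19.1 and 17.9 RPKM in the control samples against 20.5 and 21.8 RPKM after knockdown. Both knockdown samples were above both controls. The difference (log2 fold change 0.18, 95% interval from 0.01 to 0.36) did not pass the threshold after adjustment (limma, adjusted p = 0.0773). It passed after rescaling all samples to equal totals (0.24, limma, adjusted p = 0.0266). In GENCODE 38.6% of the exon bases of KAT5 overlap RNASEH2C on the opposite strand, and whether the counting used strand is not given in the sources used here. RNASEH2C had 47.9 and 44.8 RPKM under control siRNA against 43.8 and 46.8 RPKM under MYCN siRNA, values that overlapped.

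Of 17 subunits of the NuA4/TIP60 complex beside KAT5, 7 fell and 1 rose, and the median log2 fold change was -0.22. The ATPases RUVBL1 and RUVBL2, which also serve other assemblies, fell most in RPKM. RUVBL1 had 210.4 and 201.1 RPKM in the control samples against 118.2 and 123.7 RPKM after knockdown (log2 fold change -0.76, limma, adjusted p = 0.00414). RUVBL2 had 228.0 and 198.9 RPKM under control siRNA against 135.9 and 155.3 RPKM under MYCN siRNA (-0.55, limma, adjusted p = 0.0272). MEAF6, a small subunit shared with the KAT6A, KAT6B and KAT7 complexes, fell by 0.53 on the log2 scale. EPC2, an enhancer of polycomb scaffold, was the 1 gene that rose (0.36, limma, adjusted p = 0.0432). Its call was lost without a filter on low values (limma, adjusted p = 0.0714). The share called in this list, 47.1%, was close to that of all tested genes (48.1%). By direction, 7 of the 17 were lower and 1 higher, where 22.8% of all tested genes were lower and 25.3% higher. Without a filter on low values, 6 genes of the list were called lower and 0 higher.

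KAT6A and KAT6B encode MOZ and MORF, which acetylate histone H3 together with the BRPF scaffold proteins. KAT6A had 9.85 and 10.9 RPKM in the control samples against 11.1 and 10.0 RPKM after knockdown. These values overlapped, and the log2 fold change was 0.02 (95% interval from -0.21 to 0.25, limma, adjusted p = 0.829). KAT6B, on chromosome 10 from 76584685 to 76792382 on the plus strand, had 3.10 and 3.97 RPKM under control siRNA against 6.18 and 4.87 RPKM under MYCN siRNA. Both knockdown samples lay above both controls, but the replicates within each condition were far apart. The log2 fold change was 0.52 (95% interval from 0.06 to 0.99) and did not pass the threshold (limma, adjusted p = 0.0669). In the fits with a sample left out it ranged from 0.38 to 0.67. Under quantile normalization it was 0.46 and past the threshold (limma, adjusted p = 0.0383). The normalized reads of KAT6B were 900 and 1079 in the controls against 1527 and 1280 after knockdown.

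KAT7 encodes HBO1, which works with the JADE and BRPF scaffolds and is linked to replication origins. It had 25.9 and 24.4 RPKM in the control samples against 25.8 and 27.3 RPKM after knockdown. The values overlapped (log2 fold change 0.08, 95% interval from -0.08 to 0.23, limma, adjusted p = 0.316). Of the 9 subunits of the KAT6A, KAT6B and KAT7 complexes, 2 fell and 1 rose (33.3% called, against 48.1% of all genes tested). ING4, a reader of H3K4me3 in the HBO1 complex, rose from 9.64 ± 0.10 to 15.1 ± 0.144 RPKM (SD, n = 2), with log2 fold change 0.60 (limma, adjusted p = 0.00425). MEAF6 fell, as given above, and JADE2 fell by 0.23 (limma, adjusted p = 0.0486). The call for JADE2 was lost without a filter on low values (limma, adjusted p = 0.0757). In that fit, 1 gene of the list was called lower. ING5, the paralog of ING4, had a log2 fold change of -0.11 and did not pass the threshold (limma, adjusted p = 0.158).

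KAT8 encodes MOF, the enzyme that acetylates lysine 16 of histone H4 in the MSL complex and also works in the NSL complex. It lies on chromosome 16 from 31125810 to 31142714 on the plus strand. It stood at 27.2 and 23.7 RPKM under control siRNA against 18.6 and 21.3 RPKM under MYCN siRNA. Both knockdown samples were below both controls, with replicates that lay far apart in each condition. The log2 fold change was -0.34 (95% interval from -0.65 to -0.03) and missed the threshold (limma, adjusted p = 0.0736). In the fits with a sample left out it ranged from -0.43 to -0.24. Of the 11 MSL and NSL subunits 3 fell and 0 rose (27.3% called, against 48.1% of all genes tested). They were HCFC1, a host cell factor (-0.43, limma, adjusted p = 0.0488), WDR5 (-0.35) and KANSL2 (-0.25). With a sample left out, the log2 fold change of KANSL2 ranged from -0.26 to -0.25. In a fit with the replicate number as a block, KANSL2 was not past the threshold (limma, adjusted p = 0.194). The call for HCFC1 was lost without a filter (limma, adjusted p = 0.0754), with equal totals (limma, adjusted p = 0.0508), under quantile normalization (limma, adjusted p = 0.0534) and without a trend. The scaffold genes MSL1 and KANSL1 had log2 fold changes of -0.18 and 0.09 and did not pass the threshold.

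Other proteins reported to have histone acetyltransferase activity were measured beside the 10 genes. Of 8 genes, 2 rose and 1 fell (37.5% called, against 48.1% of all genes tested). The nuclear receptor coactivators NCOA2 and NCOA1 rose by 0.56 (limma, adjusted p = 0.0107) and 0.49 (limma, adjusted p = 0.0346) on the log2 scale. NCOA3 had 0.31 and did not pass the threshold. The call for NCOA1 was lost without a filter on low values (limma, adjusted p = 0.0575). GTF3C4, a subunit of the RNA polymerase III factor TFIIIC, fell from 27.6 ± 1.40 to 16.2 ± 0.768 RPKM (SD, n = 2), with log2 fold change -0.74 (limma, adjusted p = 0.00583). TAF1, ELP3, CLOCK and NAA40 did not pass the threshold.

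Of 8 tested readers of acetylated lysine, 3 fell and 0 rose (37.5% called, against 48.1% of all genes tested). BRD3, a BET bromodomain protein, had 22.4 and 21.7 RPKM under control siRNA against 15.9 and 16.4 RPKM under MYCN siRNA (log2 fold change -0.43, limma, adjusted p = 0.00698). YEATS4 fell by 0.45 and YEATS2, an ATAC subunit, by 0.27, the latter with the limit given above. For YEATS4 the call was lost without a filter on low values (limma, adjusted p = 0.0549). It was also lost after rescaling all samples to equal totals (limma, adjusted p = 0.06535). Of the readers not tested, BRDT was listed at 0 in all samples. BRD2 was below the filter, but the length behind its RPKM (33211 bases) exceeds its span in GENCODE (chromosome 6 from 32936371 to 32949282), so its level is not compared with other genes. After rescaling all samples to equal totals, 1 reader was called lower.

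Of 6 genes that supply acetyl-CoA, 2 rose and 2 fell (66.7% called, against 48.1% of all genes tested). ACSS2, which makes acetyl-CoA from acetate, had 12.96 and 13.8 RPKM in the control samples against 25.2 and 23.7 RPKM after knockdown (log2 fold change 0.83, limma, adjusted p = 0.00459). SLC25A1, the mitochondrial citrate carrier, rose from 33.4 ± 1.39 to 49.2 ± 1.96 RPKM (SD, n = 2), by 0.54 on the log2 scale. ACLY, which cleaves citrate to acetyl-CoA and had the highest level of the list, fell from 267.7 ± 0.608 to 241.6 ± 0.697 RPKM (SD, n = 2), with log2 fold change -0.15 (limma, adjusted p = 0.0270). DLAT, a subunit of the pyruvate dehydrogenase complex, fell by 0.36, while PDHA1 and PDHB did not pass the threshold. Under quantile normalization the log2 fold change of ACLY was -0.01 (limma, adjusted p = 0.774). After rescaling all samples to equal totals, 0 genes of this list were called lower.

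**Figure D4:**
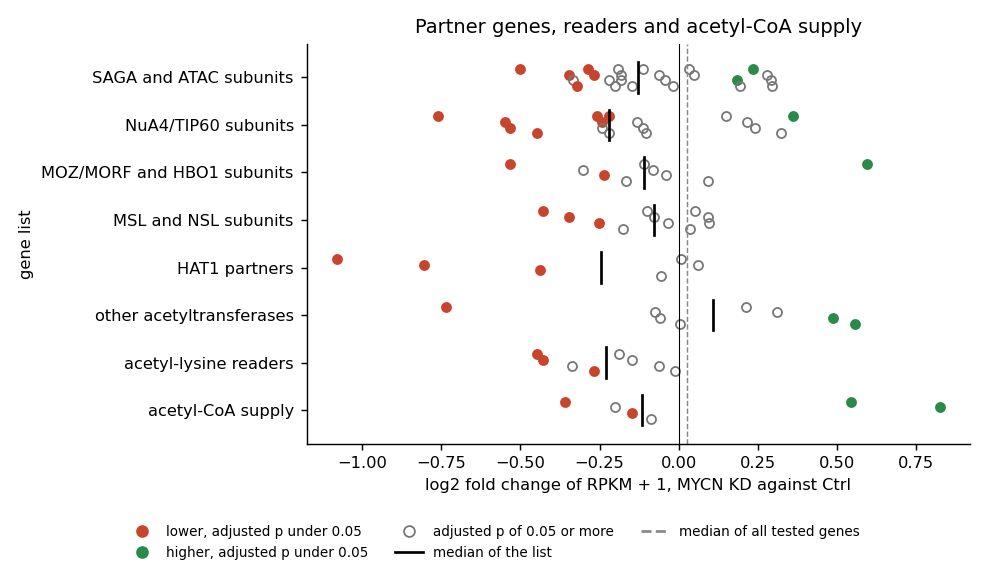
Log2 fold change of RPKM + 1 in MYCN KD against Ctrl for the tested genes of each list, filled where the adjusted p was under 0.05 (limma). Black bars are list medians and the dashed line is the median of all tested genes (0.03). The medians run from -0.25 (HAT1 partners) to 0.11 (other acetyltransferases), and ACSS2 (0.83) and IPO4 (-1.08) mark the ends.

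The calls for the single genes were then compared across the processing alternatives. KAT2A and HAT1 stayed lower and past the threshold in 13 of 13 alternatives each, with log2 fold changes from -1.07 to -0.97 and from -0.66 to -0.56. CREBBP stayed lower in 13 of 13 and past the threshold in 9. KAT2B, taken from fits without the RPKM filter, stayed higher in 12 of 12 and past the threshold in 8. KAT8 stayed lower in 13 of 13 but was not past the threshold in any fit of all 4 samples without a block. KAT6B stayed higher in 12 of 12. Among the fits of all 4 samples without a block, it was past the threshold under quantile normalization alone. EP300, KAT5 and KAT7 stayed higher in 13 of 13, with KAT5 past the threshold in 2 and EP300 and KAT7 in 1. KAT6A changed sign in 3 of 13. These counts include a crossed replicate block and limma voom, both chosen after seeing the data. The crossed block called nearly all of the 11411 tested genes (5910 higher and 5262 lower), so a pass there does not set a gene apart. It gave the 1 pass of EP300 and of KAT7. The counts also include the fits with a sample left out, where a call depended mostly on the size of the change.

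**Figure D5:**
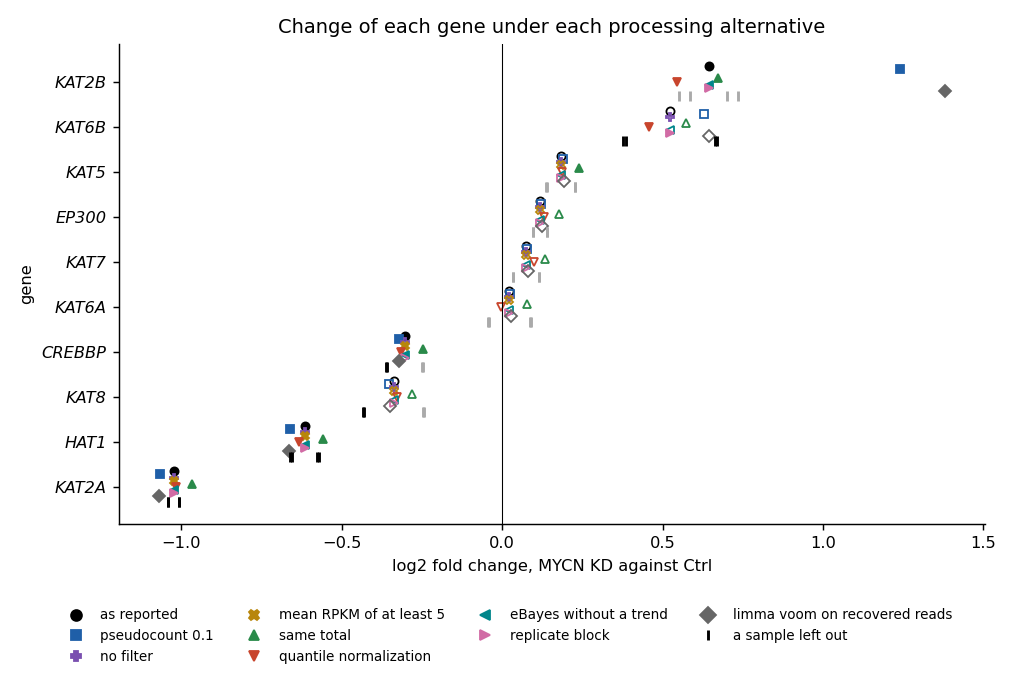
Log2 fold change of each gene in MYCN KD against Ctrl under each processing alternative, where filled symbols and black ticks are past an adjusted p of 0.05 and open symbols and grey ticks are not. Ticks are fits with a sample left out, and KAT2B is shown from fits without the RPKM filter. KAT2A and HAT1 keep to a narrow range below 0, and KAT2B depends most on the scale, from 0.55 to 1.38.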

How the data were processed

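RNA-seq of 4 BE(2)C samples was used, grouped by their titles. The authors used HISAT2 2.1.0 to align reads (hg19), counted RefSeq genes with featureCounts, modelled the counts with DESeq2, removed unwanted variation with RUVSeq (variant and number of factors not given in the sources used here) and deposited RPKM values per sample. Differences between libraries may thus have been reduced before deposit.

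The totals were set from small RNA genes of known length, with which all 19908 genes above 0 gave whole normalized reads (within 0.002). Genes whose RPKM averaged 1 or more over the 4 samples were tested by limma (version 3.58.1, R 4.3.3, trend, no block) after adding a pseudocount of 1 and taking log2. All their p-values were adjusted together by Benjamini-Hochberg, with a threshold of 0.05. Paralog ratios were tested by exact permutation (scipy 1.17.1). The fit was run on simulated counts drawn independently for each sample, with few changed genes. That setting lacks the mirror pattern of the replicates and the large share of genes called here. It therefore does not test the p-values given here.

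The genes were chosen by symbol, and the members and lists were chosen with earlier results of these data known. Named are MYCN, all members and, in each list, up to 3 falls and 3 rises past the threshold, with genes outside this rule named after their values were seen. SGF29 is listed under its older symbol CCDC101. Gene positions came from GENCODE release 44 on GRCh37. Alternatives were another pseudocount, other filters, other scalings, no trend, a replicate block and each sample left out, with a crossed block, limma voom on the recovered reads and fits of KAT2B without the filter chosen after seeing the data. Some genes of the lists are not reported here.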

Additional observations from a re-analysis of the deposited data

How the results depend on the processing

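Of 98 values of the 9 tested histone acetyltransferase genes under the alternatives, 82 kept their direction and their side of the threshold. KAT6A turned lower under quantile normalization (-0.0035) and without replicate 1 of Ctrl (-0.0437) or of MYCN KD (-0.0413), within a range from -0.0437 to 0.0889 with a sample left out. Instead of 0 genes, 1 was called higher in several fits, and it was not the same gene. It was KAT2B without a filter (which adds it to the 9) and KAT5 with the same total. It was KAT6B under quantile normalization and under the replicate block. Counts by list moved as follows, and the cause was not tested. Without a filter, 1 SAGA and ATAC gene and 0 NuA4/TIP60 genes were called higher, 1 MOZ/MORF and HBO1 gene lower and 1 other acetyltransferase higher, and SUPT20H, EPC2, JADE2, HCFC1, NCOA1 and YEATS4 were not past the threshold. At a mean RPKM of at least 5, 1868 of 7859 genes were called higher, as were 0 NuA4/TIP60 genes and 1 other acetyltransferase. With the same total, SAGA and ATAC had 4 genes higher and 2 lower, MOZ/MORF and HBO1 1 lower, HAT1 partners 1 higher, readers 1 lower and acetyl-CoA supply 0 lower. Under quantile normalization, SAGA and ATAC had 8 genes lower, NuA4/TIP60 2 higher and acetyl-CoA supply 1 lower. With a sample left out (1 residual degree of freedom, the lone sample being assumed to vary like the other group), SAGA and ATAC had 1 to 2 higher and 2 to 4 lower, NuA4/TIP60 0 to 3 higher and 4 to 5 lower, MOZ/MORF and HBO1 1 to 2 lower, other acetyltransferases 2 to 4 higher and acetyl-CoA supply 1 to 1 lower.

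The labels do not say that a replicate number marks a shared culture or day, and the deviations of the same numbers correlated at -0.985 in these values, from which the authors had removed unwanted variation, so the numbers were not used as pairs. Whether that step produced the pattern was not tested. Under the replicate block, CREBBP was not past the threshold (-0.30, limma, adjusted p = 0.136), 2077 genes were called higher and 1851 lower, SAGA and ATAC had 0 higher and 2 lower, NuA4/TIP60 0 higher and 4 lower, MOZ/MORF and HBO1 1 lower and acetyl-CoA supply 1 lower. A crossed replicate block, chosen after seeing the data, called 5910 genes higher and 5262 lower, with 5 histone acetyltransferase genes higher. Limma voom on the recovered normalized reads, which is made for raw counts, called 2926 genes higher and 2566 lower. KAT2B rests on 39 to 109 normalized reads per sample.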
